A study of Mus musculus with 12 samples.

Results

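The L1, NCAM and contactin genes encode cell adhesion molecules of the immunoglobulin superfamily that sit on growing axons. 10 of them are described here, found by their gene symbols among the 51912 genes listed in the count tables, and all 10 were among the 10678 genes tested. They are 4 members of the L1 family (L1cam, Nrcam, Chl1 and Nfasc), the 2 NCAM genes (Ncam1 and Ncam2) and 4 contactins (Cntn1, Cntn2, Cntn4 and Cntn6). Total RNA was measured in 12 libraries of mouse cerebral cortex taken at embryonic day 15.5, with 6 libraries labelled Emx1-Cre Arid1a conditional mutant and 6 labelled control. The Arid1a protein is part of BAF, a complex that remodels chromatin. Emx1-Cre acts in the progenitors of the dorsal telencephalon, so interneurons that migrate in from the ventral forebrain, vessels and blood keep an intact gene. The sources used here do not give the alleles or the Cre status of the controls. Litter 1 gave mutants 1 and 2 and controls 1 to 4, and litter 2 gave mutants 3 to 6 and controls 5 and 6. Mutant 4 and controls 2 to 5 were males and the other 7 libraries came from females, so that litter, sex and genotype overlapped in part.

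L1 family proteins span the membrane, bind each other and contactins across and along membranes, and link to the spectrin and actin skeleton through ankyrins and ezrin-type proteins. NCAM proteins bind homophilically, and NCAM1 is the main carrier of polysialic acid in the developing brain, which weakens adhesion while axons grow. Contactins are held in the outer membrane leaflet by a lipid anchor, lack a cytoplasmic tail, and signal through partners such as the contactin-associated proteins, receptor phosphatases and L1 family members.

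The libraries held 643197 to 3525121 gene counts, and the 2 shallowest were mutants 1 and 4. Targeted Arid1a was at 504 ± 41.9 CPM (gene counts scaled to library size) in controls and 443 ± 50.5 in mutants (SD, n = 6 each). The log2 fold change was -0.30 (SE 0.0958, edgeR quasi-likelihood adjusted p = 0.278), with 3 of 6 mutants below the lowest control. The sources used here do not name the deleted exons, and the count covers the whole gene. The labelled tissue carried cortical projection neuron markers, whose summed level was 3088 to 4711 CPM in controls and 2582 to 3365 CPM in mutants. 9 of those 10 markers were tested, while Tubb3 was listed at 0 in every library, as were Sox2, Neurod1 and the prion protein gene Prnp. Whether these zeros reflect absent RNA or the way reads were counted was not tested, so they are not read as levels. Markers of ganglionic eminence and striatum, which lie below the cortex, summed to 71.3 to 1101 CPM in controls and 116 to 1194 CPM in mutants. Interneuron markers summed to 1294 to 3111 CPM in controls and 1486 to 2388 CPM in mutants. In bulk tissue, fewer cells of a type and less RNA per cell cannot be told apart.

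Several of the 10 genes lie close together (coordinates from GENCODE M21, GRCm38). Cntn2 (chromosome 1, 132509427 to 132543256) and Nfasc (chromosome 1, 132564690 to 132741797) are neighbours on the minus strand, 21.433 kb apart, with no annotated gene between them. On the plus strand of chromosome 6, Chl1 (103510586 to 103750211) is followed by Cntn6 (104492790 to 104863406) after 742.578 kb, and Cntn6 by Cntn4 (105677660 to 106699310) after 814.253 kb, with no protein-coding gene in either gap. The other 5 lie apart: L1cam on X (73853778 to 73896105, minus strand), Nrcam on 12 (44328885 to 44601964, plus strand), Ncam1 on 9 (49502136 to 49798925, minus strand), Ncam2 on 16 (81200697 to 81626828, plus strand) and Cntn1 on 15 (92051165 to 92341967, plus strand). Gene span ranged from 33.8 kb for Cntn2 to 1022 kb for Cntn4.

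RefSeq start sites (GRCm38.p6) gave a window of 250 bases upstream for 9 of the 10 genes. 3 windows are shown: that of Cntn4, which had the largest genotype difference, that of Nrcam, which varied least between libraries, and that of L1cam, whose interval lay almost wholly below 0, a choice made after the values were seen. Each is the window of that gene's most upstream RefSeq start and holds no GENCODE exon. They are written 5′ to 3′ on the strand of the gene, with CG dinucleotides in capitals.
Cntn4, chr6:106118515-106118764, plus strand: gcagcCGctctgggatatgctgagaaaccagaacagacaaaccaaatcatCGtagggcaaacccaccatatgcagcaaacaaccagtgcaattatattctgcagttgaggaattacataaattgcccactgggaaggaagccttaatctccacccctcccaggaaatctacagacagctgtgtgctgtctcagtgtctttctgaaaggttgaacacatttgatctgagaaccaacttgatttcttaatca
Nrcam, chr12:44328635-44328884, plus strand: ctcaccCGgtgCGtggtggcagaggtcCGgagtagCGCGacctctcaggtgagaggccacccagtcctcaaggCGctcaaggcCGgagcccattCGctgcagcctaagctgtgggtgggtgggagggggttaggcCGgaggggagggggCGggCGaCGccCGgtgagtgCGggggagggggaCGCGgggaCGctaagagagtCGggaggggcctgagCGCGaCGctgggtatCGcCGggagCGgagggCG
L1cam, chrX:73880835-73881084, minus strand: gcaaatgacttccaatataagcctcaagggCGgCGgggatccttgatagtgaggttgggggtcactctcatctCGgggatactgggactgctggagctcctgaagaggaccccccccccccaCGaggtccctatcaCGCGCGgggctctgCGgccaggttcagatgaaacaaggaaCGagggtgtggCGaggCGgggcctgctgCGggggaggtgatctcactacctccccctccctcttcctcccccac
The Cntn4 window held 2 CG dinucleotides and a GC content of 44.4%, against medians of 6 and 52.4% over 32851 RefSeq windows of this length. It lies 441.105 kb inside the GENCODE gene, so it belongs to an internal start. The window of the next Cntn4 RefSeq start overlaps it and a GENCODE exon. That second window held 12 CG dinucleotides, as many as the L1cam window shown, and 1 TAATTA. The low CG count of Cntn4 thus held for the first of these 2 starts only. The second L1cam window held 20 CG dinucleotides. The L1cam window shown lies 15.271 kb inside its GENCODE gene and is internal too, while that of Nrcam ends at the GENCODE start of the gene. The windows of Nrcam and L1cam were CG-rich, with 25 and 12 CG dinucleotides and a GC content of 72.4% and 63.2%. The GC box GGGCGG, searched on both strands, occurred once in each of these, as in 32.7% of all windows, and not in the Cntn4 window. The E-box CAGATG, found in 14.4% of all windows, occurred once in the L1cam window, and TATAAA (12.4%) and TAATTA (4.84%) occurred in none of the 3. Most upstream windows of the other genes held from 3 CG dinucleotides (Cntn6) to 32 (Ncam2). These counts describe the letters only and were not set against expression by a test.

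Per length of exons, Ncam1 had the highest level of the 10 genes in control cortex, and Cntn4 and Cntn6 the lowest. Ncam1 stood at 176 ± 27.3 CPM per kb of exons (SD, n = 6), 3.16-fold above Chl1 at 55.9 ± 5.59. Cntn2 (47.2 ± 14.7), Nfasc (42.9 ± 7.39) and Nrcam (37.8 ± 2.04) followed, and the control ranges of these neighbours overlapped. L1cam (26.8 ± 2.87) lay below Nrcam without overlap, and Ncam2 (22.2 ± 8.06) and Cntn1 (18.6 ± 7.64) overlapped with the gene above each. Cntn4 (4.16 ± 2.49) and Cntn6 (2.45 ± 1.52) were the 2 lowest, separated from Cntn1 without overlap and overlapping with each other.

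The order changed with the length used. Both lengths are given because total RNA holds intronic sequence and the sources used here do not name the feature type that was counted. Reads entered under no feature took from 4.89% (mutant 3) to 6.83% (mutant 1) of a file's total. The part of intronic reads in the counts was not tested, so a level per kb of exons can include them. Per kb of gene span, Cntn2 led at 13.0 ± 4.03 CPM, 2.52-fold above Ncam1 at 5.15 ± 0.797, with no overlap. L1cam (4.66 ± 0.498), Nfasc (3.43 ± 0.590) and Chl1 (2.87 ± 0.287) came next, each overlapping with its neighbour. Nrcam (1.85 ± 0.100) was separated from Chl1 above and from Cntn1 below. Cntn1 (0.603 ± 0.248) and Ncam2 (0.591 ± 0.214) overlapped, and Cntn6 (0.0430 ± 0.0266) and Cntn4 (0.0346 ± 0.0207) were again lowest. Among protein-coding genes with 5 to 15 kb of exons, the median level per kb of exons rose with span, from 4.87 CPM in 2406 genes under 50 kb to 34.7 CPM in 215 genes over 400 kb. Cntn4, with a span over 400 kb, stood at 4.16 CPM per kb of exons beside that 34.7, and Ncam2, also over 400 kb, at 22.2.

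**Figure D1:**
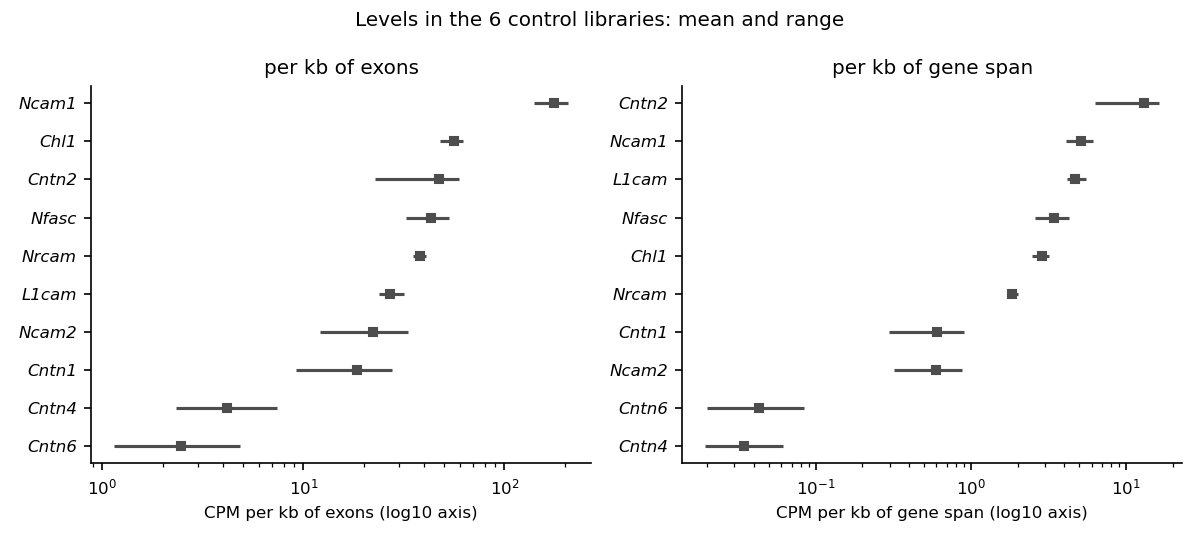
Level of each gene in the 6 control libraries, as CPM per kb of exons (left) and per kb of gene span (right), both on log10 axes. Squares are means and lines run from the lowest to the highest library. Ncam1 is highest per kb of exons (176) and Cntn2 per kb of span (13.0), and Cntn4 and Cntn6 are lowest on both scales.

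None of the 10 genes passed the test between genotypes. 6 had a lower and 4 a higher fitted level in mutants, with a median log2 fold change of -0.06 beside -0.00076 over all genes tested. edgeR's quasi-likelihood test with terms for litter, sex and genotype called 0 of the 10 at a Benjamini-Hochberg adjusted p under 0.05, and 2 (Cntn4 and Cntn6) had an unadjusted p under 0.05. The background was low, with 23 of 10678 genes called (0.215%) and 939 at an unadjusted p under 0.05. limma-voom called 0 of the 10 and DESeq2 called 1, Cntn4, beside 0.618% of the genes for which it gave an adjusted p. In no member were the mutant and control CPM ranges separate, beside 1.25% of all tested genes.

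None of the 4 L1 family genes passed, and their fitted log2 fold changes ran from -0.21 to -0.07. L1cam, the founding member and a promoter of axon growth and bundling, was at 200.1, 183, 205, 234, 176 and 185 CPM in controls 1 to 6. In mutants 1 to 6 it was at 150.3, 151, 133, 211, 143 and 158 CPM. 5 of 6 mutants thus lay below the lowest control, and mutant 4, the only male mutant, lay within the control range. The fitted log2 fold change was -0.21 (SE 0.114, 95% interval -0.45 to 0.03, adjusted p = 0.641). Without mutant 4, which leaves no male mutant, it was -0.37 (SE 0.117, adjusted p = 0.391). The sex term of this X-linked gene was as large, at -0.22 (female minus male, SE 0.109, edgeR adjusted p = 0.714). Without a sex term the genotype value was -0.31 (edgeR adjusted p = 0.298). In females alone, where controls 1 and 6 are the only controls, it was -0.38 (edgeR adjusted p = 0.254). The genotype value was negative under all 26 alternative settings, from -0.42 to -0.12, and none of them gave a call.

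Nrcam, a co-receptor for semaphorins that also gathers at the axon initial segment, was the steadiest of the 10, with a coefficient of variation of 7.49% over the 12 libraries. It ran from 468 to 547 CPM in controls and from 428 to 518 CPM in mutants, and 4 of 6 mutants lay below the lowest control. The log2 fold change was -0.10 (SE 0.0910, 95% interval -0.29 to 0.09, adjusted p = 0.835). Chl1, the close homologue of L1 that takes part in neuronal positioning and axon guidance, ran from 591 to 763 CPM in controls and from 524 to 723 CPM in mutants. For Chl1 the log2 fold change was -0.08 (SE 0.110, 95% interval -0.31 to 0.15, adjusted p = 0.923).

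Nfasc, which encodes neurofascin, the organiser of the axon initial segment and nodes of Ranvier, had an unadjusted p under 0.05 for litter and not for genotype. Controls 1 to 6 held 612, 458, 522, 646, 754 and 653 CPM, and mutants 1 to 6 held 481, 498, 555, 783, 717 and 696 CPM. In litter 1 the highest library was at 646 CPM, and in litter 2 all but mutant 3 were above that value. The genotype log2 fold change was -0.07 (SE 0.122, 95% interval -0.32 to 0.19, adjusted p = 0.958). The litter term was 0.40 (litter 2 minus litter 1, SE 0.109, adjusted p = 0.0747), short of the threshold. It passed with no filter on low counts (adjusted p = 0.000626) and, of the fits that leave out 1 library, in the one without control 4 (adjusted p = 0.0444).

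**Figure D2:**
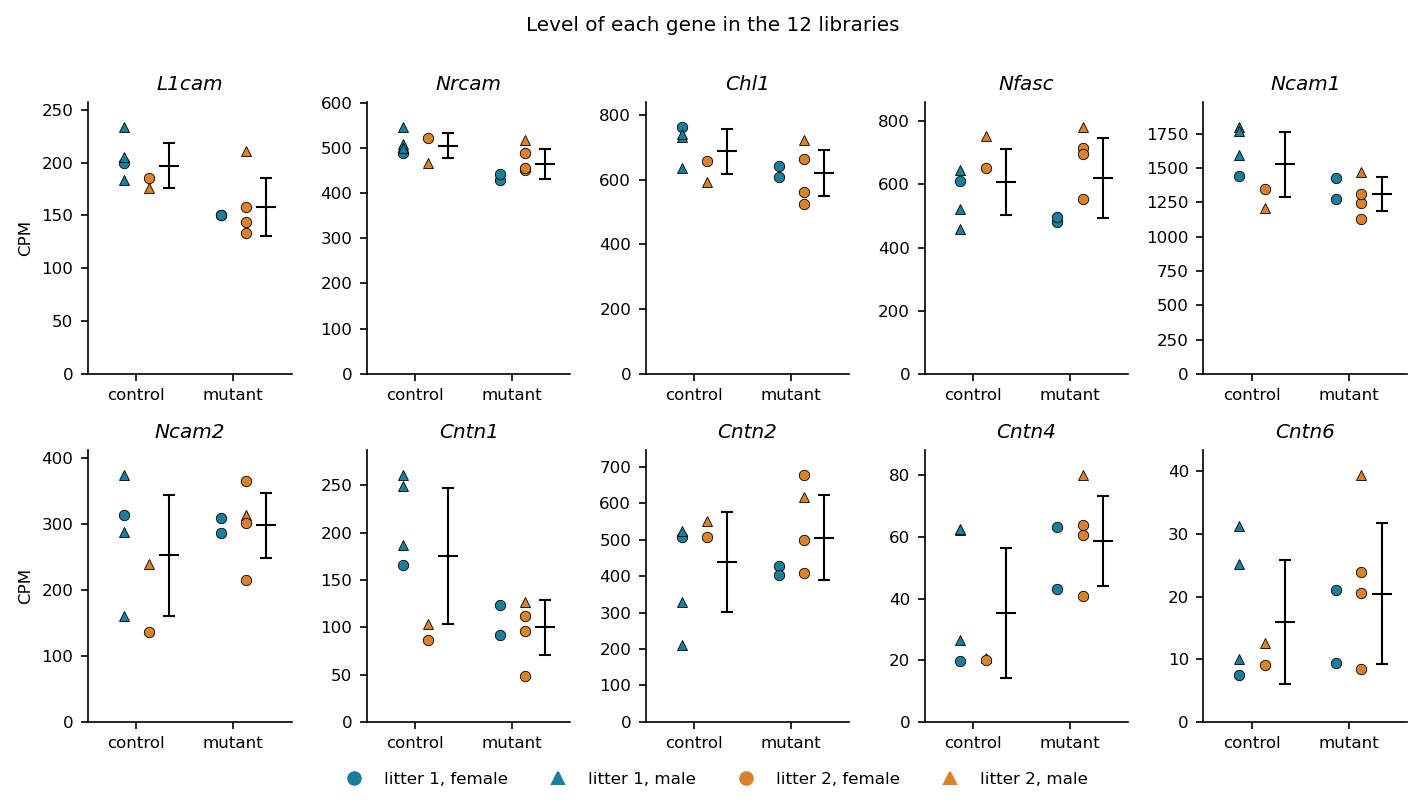
CPM of each gene in the 12 libraries, controls on the left and mutants on the right of each panel, with litter by colour and sex by shape. Bars give the mean and SD of the 6 libraries of a genotype. The L1cam panel shows 5 mutants under the lowest control (176), and the Cntn4 panel shows 4 controls at 19.8 to 26.6 under all 6 mutants, with 2 males of litter 1 at 62.2 and 62.6.

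The 2 NCAM genes showed no called difference. Ncam1 was at 1441, 1802, 1596, 1769.6, 1209.7 and 1347 CPM in controls 1 to 6 and at 1426, 1274, 1247, 1472, 1132 and 1311 CPM in mutants 1 to 6. The lowest controls were the 2 of litter 2, which lay within the mutant range. Its group means of 1527 ± 236 and 1310.3 ± 124 CPM (SD, n = 6 each) differed more than the fitted log2 fold change of -0.05 (SE 0.109, 95% interval -0.28 to 0.18, adjusted p = 0.975), since the fit also carried a litter term of -0.21 (SE 0.0971, adjusted p = 0.298) and a sex term. Ncam2, which is best known from olfactory axons, ran from 137 to 374 CPM in controls and from 214 to 364 CPM in mutants. The log2 fold change of Ncam2 was 0.48 with a wide interval (SE 0.309, 95% interval -0.21 to 1.18, adjusted p = 0.739).

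Among the contactins, Cntn4 and Cntn6 had the largest genotype differences of the 10 genes and the fewest counts. Cntn4, a contactin that binds the amyloid precursor protein family, was at 19.8, 62.2, 62.6, 26.6, 20.6 and 20.0 CPM in controls 1 to 6. In mutants 1 to 6 it was at 63.1, 43.2, 63.8, 80.0, 40.7 and 60.7 CPM. All 6 mutants were above 4 of the controls, and controls 2 and 3, males of litter 1, lay among the mutants. These values rest on 36 to 233 counts per library.

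The fitted log2 fold change of Cntn4 was 1.40 (SE 0.365, 95% interval 0.59 to 2.21, unadjusted p = 0.00307, adjusted p = 0.217), which did not pass. It was positive under all 26 alternatives, from 0.72 to 1.66, with adjusted p from 0.00914 to 0.689, and passed in 4 of them. These were DESeq2 (adjusted p = 0.00914), litter 2 alone (1.66, edgeR adjusted p = 0.0180, beside 0.574% of genes), females alone (1.43, edgeR adjusted p = 0.0151, beside 0.377%) and the fit with a striatal marker score added (1.20, edgeR adjusted p = 0.0192, beside 0.347%). Its size depended on the sex term. Without that term the log2 fold change was 0.93 (edgeR adjusted p = 0.470), and without sex and litter terms it was 0.72 (edgeR adjusted p = 0.441). Females alone compared 5 mutants at 54.3 ± 11.4 CPM with 2 controls at 19.9 ± 0.129 CPM (SD), so the value rests on controls 1 and 6. Litter 2 alone compared 4 mutants at 61.3 ± 16.1 CPM with 2 controls, 5 and 6, at 20.3 ± 0.409 CPM (SD). Every fit in litter 2 alone rests on those 2 controls, and control 6 is in both subsets. In the genotype comparison of all 12 libraries, all 11 interneuron markers had positive log2 fold changes (median 0.42, 0 called). So had all 7 tested markers of ganglionic eminence and striatum (median 1.11, 0 called). With the striatal marker score in the model Cntn4 was at the 1.20 given above, and the part of interneuron RNA in it was not tested. The single male mutant was at 80.0 CPM and the 4 male controls ran from 20.6 to 62.6 CPM.

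Cntn6, a contactin of sensory-motor pathways and the lowest of the 10 by mean CPM, was at 7.44, 25.2, 31.3, 9.97, 12.6 and 9.10 CPM in controls 1 to 6. In mutants 1 to 6 it was at 21.04, 9.47, 20.5, 39.4, 8.48 and 23.9 CPM. The groups overlapped over most of their ranges, and the counts per library were 9 to 84. The log2 fold change was 1.05 (SE 0.456, 95% interval 0.05 to 2.04, unadjusted p = 0.0406, adjusted p = 0.534). It was positive under all 26 alternatives but fell to 0.39 without a sex term and 0.29 without sex and litter terms, and it passed only when no filter on low counts was applied (adjusted p = 0.0207).

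Cntn1, the partner of Cntnap1 at paranodal junctions, was highest in the controls of litter 1. Controls 1 to 4 were at 165, 261, 249 and 187 CPM and controls 5 and 6 at 103 and 86.9 CPM. Mutants 1 to 6 were at 123, 91.6, 96.1, 127, 48.3 and 112 CPM. The 4 controls of litter 1 were above every other library, and mutants were at 107 CPM in litter 1 and 95.9 CPM in litter 2 on average. The litter term was -0.72 (SE 0.240, unadjusted p = 0.0136, adjusted p = 0.188) and the genotype log2 fold change -0.22 (SE 0.266, 95% interval -0.81 to 0.38, adjusted p = 0.910), and neither passed. The genotype value depended on the terms and libraries. It was -0.64 in litter 1 alone, where 1 control informs genotype. It was 0.08 in litter 2 alone, -0.52 without a litter term, -0.50 without a sex term and -0.85 without both, with edgeR adjusted p from 0.294 to 0.976.

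Cntn2, known as TAG-1 and borne by early corticofugal axons, had a genotype log2 fold change of 0.02 (SE 0.262, 95% interval -0.56 to 0.61, adjusted p = 1.00). Controls 1 to 6 were at 509, 212, 330.5, 525, 553 and 506 CPM. Mutants 1 to 6 were at 428, 404, 408, 616, 678 and 498 CPM. The 2 lowest libraries were controls 2 and 3, the same 2 that were highest among controls for Cntn4 and Cntn6.

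**Figure D3:**
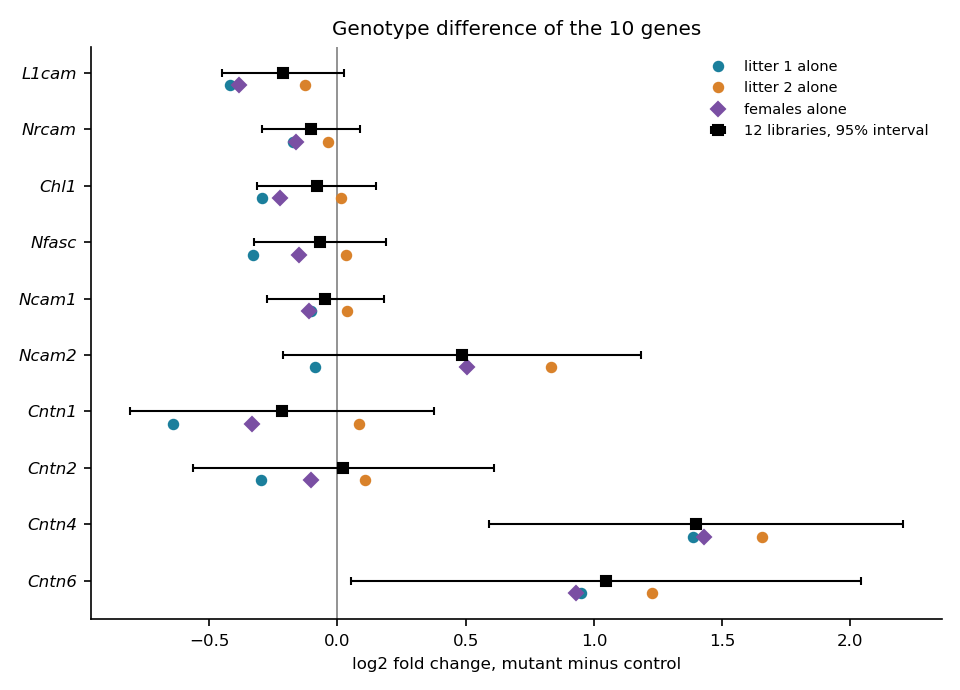
Log2 fold change of mutants over controls for each gene, with black squares and 95% intervals from all 12 libraries and coloured points from litter 1, litter 2 or females alone. The intervals of Cntn4 (0.59 to 2.21) and Cntn6 (0.05 to 2.04) lie above 0, and neither passed adjustment over all genes. The intervals of the other 8 genes include 0.

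Litter and sex gave no call among the 10 genes. Between litters, edgeR called 0 of 10, while 1.31% of all genes were called. An unadjusted p under 0.05 was reached by 3 (Nfasc, Cntn1 and Ncam1), beside 1641 of all 10678 genes. Between sexes it called 0 of 10, beside 0.00937% of all genes. An unadjusted p under 0.05 was reached by 3 (Cntn6, Cntn4 and Cntn1), beside 742 of all 10678 genes. The sex terms of those 3 were all lower in females, at -1.25 for Cntn6 (SE 0.414, adjusted p = 0.677), -0.86 for Cntn4 (SE 0.339, adjusted p = 0.710) and -0.57 for Cntn1 (SE 0.2501, adjusted p = 0.711). The interaction of litter and genotype called 0 of 10 with 0 at an unadjusted p under 0.05, beside 0% of all genes called and 777 genes at an unadjusted p under 0.05. The interaction was 0.83 for Cntn4 (SE 0.636, 95% interval -0.60 to 2.26), 0.74 for Cntn1 (SE 0.445, 95% interval -0.26 to 1.74) and 0.57 for Ncam2 (SE 0.531, 95% interval -0.66 to 1.79). Fitted in litter 1 alone, where 1 control informs genotype, Ncam2 was at -0.09 and Cntn4 at 1.39. Fitted in litter 2 alone, Ncam2 was at 0.83 and Cntn4 at 1.66. At this width, differences between litters inside these intervals were not detectable.

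Cntn2 and Cntn4 varied with the amount of striatal marker RNA in a library, in opposite directions. The score was the mean of standardised log2 CPM over 7 tested markers of ganglionic eminence and striatum, and none of the 10 genes is in it. It ran from -1.41 in control 1 to 1.28 in control 2, and from -0.83 to 0.99 in mutants. With litter, sex and genotype in the model, edgeR called 2 of the 10 genes, beside 1.69% of all genes. An unadjusted p under 0.05 was reached by 5 of the 10, beside 1175 of all 10678 genes. Cntn2 fell by 0.37 log2 units per unit of score (SE 0.0691, 95% interval -0.52 to -0.23, adjusted p = 0.00777). Cntn4 rose by 0.45 (SE 0.0993, 95% interval 0.24 to 0.66, adjusted p = 0.0266).

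The other 8 genes did not pass. Cntn6 had the largest of their slopes, 0.50 (SE 0.158, adjusted p = 0.160). Cntn1 was at 0.16 (SE 0.119, adjusted p = 0.684), Nfasc at -0.16 (SE 0.0497, adjusted p = 0.135) and Chl1 at -0.11 (SE 0.0506, adjusted p = 0.425). Leaving out each library in turn, Cntn2 passed in 11 of 12 fits and lost its call without control 2, the library with the highest score (-0.29, edgeR adjusted p = 0.221). Cntn4 passed in 7 of 12 and lost its call without control 2 (edgeR adjusted p = 0.231), control 3 (0.0724), control 4 (0.135), mutant 3 (0.0506) or mutant 6 (0.0667), with slopes from 0.39 to 0.58 throughout. Cntn6 passed without control 1 (edgeR adjusted p = 0.0345) or without mutant 4 (0.0271), and with no filter on low counts (0.00268). Of the 11 interneuron markers, 6 rose with the score. Whether ventral tissue in a dissection, interneurons or another source accounts for these slopes was not tested.

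**Figure D4:**
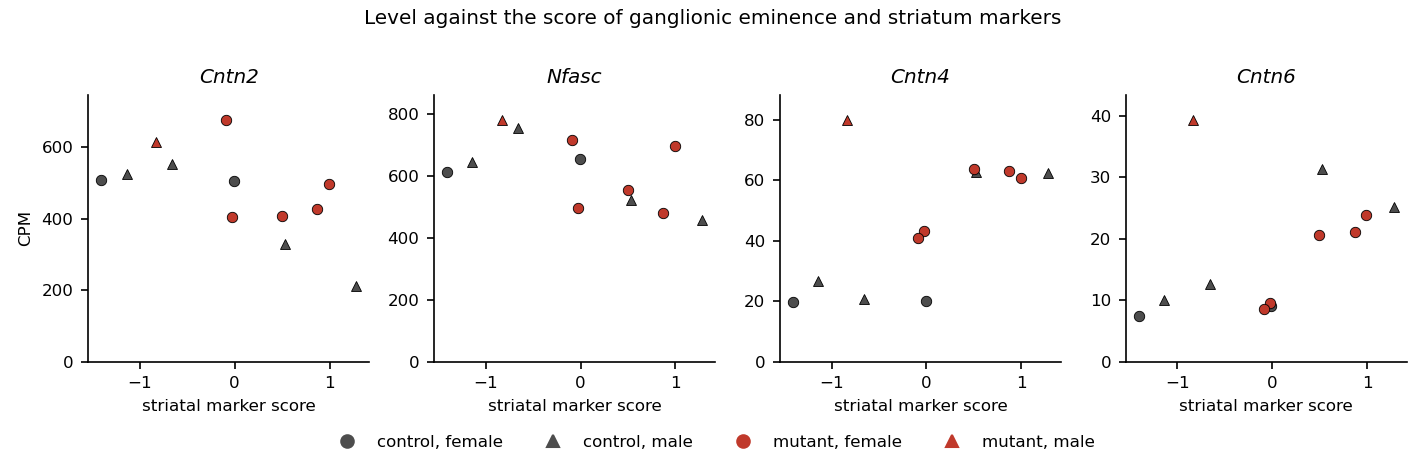
CPM of Cntn2, Nfasc, Cntn4 and Cntn6 in the 12 libraries against the striatal marker score, which has no unit, with genotype by colour and sex by shape. Cntn2 is lowest (212) in control 2, the library with the highest score (1.28). Mutant 4 combines the highest Cntn4 (80.0) with a low score (-0.83).

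Within the set, 4 of 45 gene pairs moved together over the 12 libraries, and 2 of those 4 pairs are genes on the same chromosome. Pearson's r is of log2 CPM, permutation p-values are two-sided, and adjustment is over the 45 pairs. All pairs share libraries and depth, and both genotypes, litters and sexes are pooled. The share of such pairs over all tested genes is not given here, so the pairs are not shown to be particular to the set. The neighbours Nfasc and Cntn2 had r = 0.84 (permutation p = 3.0e-05, adjusted p = 0.00135) and Spearman's rho = 0.87 (permutation p = 0.000540, adjusted p = 0.0121). Their r was 0.88 without the 2 libraries farthest from the median of Nfasc, 0.77 within litter 1 and 0.83 within litter 2.

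Cntn4 and Cntn6, consecutive protein-coding genes of chromosome 6, had r = 0.84 (permutation p = 0.00130, adjusted p = 0.0195) and rho = 0.80 (permutation p = 0.00276, adjusted p = 0.0414). Their r was 0.77 without the 2 farthest libraries, 0.89 within litter 1 and 0.81 within litter 2. Ncam1 and Cntn1, on different chromosomes, had the highest r of 0.90 (permutation p = 7.0e-05, adjusted p = 0.00157) and rho = 0.89 (permutation p = 0.000250, adjusted p = 0.0112). Their r was 0.89 without the 2 farthest libraries, 0.87 within litter 1 and 0.77 within litter 2.

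L1cam and Chl1 had r = 0.79 (permutation p = 0.00252, adjusted p = 0.0283), while rho = 0.73 missed the adjusted threshold (permutation p = 0.00943, adjusted p = 0.0849). Their r was 0.66 without the 2 farthest libraries, 0.85 within litter 1 and 0.70 within litter 2. The most negative pair was Cntn1 and Cntn2 with r = -0.67 (permutation p = 0.0178, adjusted p = 0.114) and rho = -0.36 (permutation p = 0.253, adjusted p = 0.540), and r was -0.27 without the 2 farthest libraries. On chromosome 6, Chl1 had r = -0.18 with its neighbour Cntn6 and r = -0.27 with Cntn4. Closeness on a chromosome thus did not go with a shared pattern in every case.

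**Figure D5:**
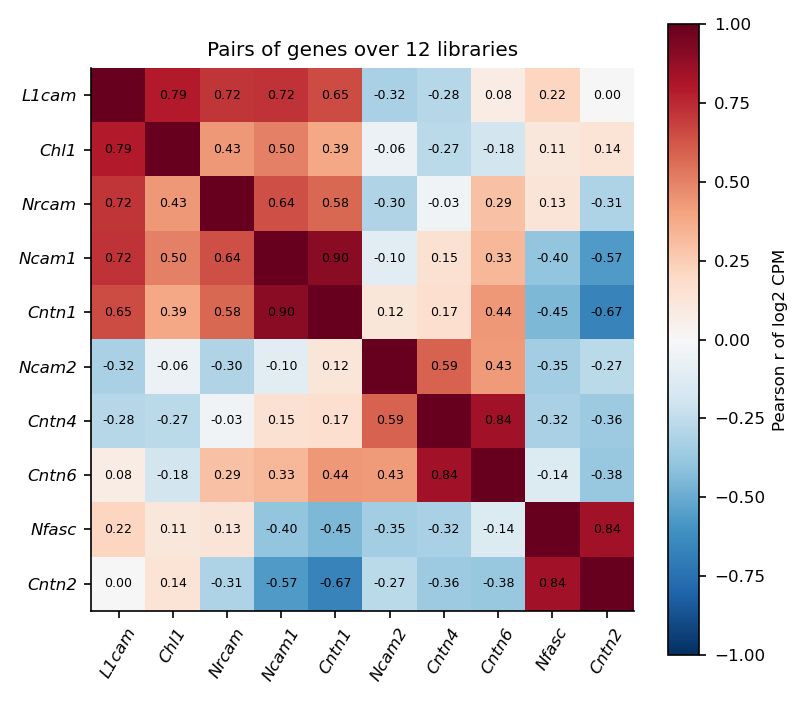
Pearson's r of log2 CPM for every pair of the 10 genes over the 12 libraries, from -1 (blue) to 1 (red). The pairs Ncam1 with Cntn1 (0.90), Nfasc with Cntn2 (0.84), Cntn4 with Cntn6 (0.84) and L1cam with Chl1 (0.79) stand out, and Cntn1 with Cntn2 (-0.67) is the most negative.

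Outside the set, likeness was read as r over the same 12 libraries among 5677 genes with a mean of at least 30 CPM, as a description. Chl1, the most abundant L1 family member by CPM, was most like Ank2 (0.89), Exoc6 (0.86) and Osbpl5 (0.86). Ncam1 was most like Grm3 (0.96), Slc16a7 (0.94) and Scn2a (0.94). Cntn2 was most like Sez6 (0.90), D430042O09Rik (0.90) and Trak1 (0.90). Cntn4 was most like another contactin, Cntn5 (0.93), and then Mapk10 (0.89) and D430019H16Rik (0.89).

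Neither of the 2 remaining contactins passed. Cntn5 was at 223, 755, 632, 218, 277 and 243 CPM in controls 1 to 6 and at 589, 476, 576, 626, 599 and 764 CPM in mutants 1 to 6, so that controls 2 and 3 were again the only controls within the mutant range. The log2 fold change of Cntn5 was 1.12 (SE 0.444, unadjusted p = 0.0336, adjusted p = 0.501), and it passed in females alone (edgeR adjusted p = 0.000985) and in litter 2 alone (edgeR adjusted p = 0.0104). Its slope on the striatal marker score was 0.52 (SE 0.0939, adjusted p = 0.0178). The log2 fold change of Cntn3 was 0.59 (SE 0.322, adjusted p = 0.674), with 3 of 6 mutants above the control mean. Cntn3 was at 1.11 in litter 2 alone, where it passed (edgeR adjusted p = 0.0209), and at 0.16 without a sex term (edgeR adjusted p = 0.961). It was at -0.31 in litter 1 alone, where 1 control informs genotype. Its litter by genotype interaction was 1.37 (SE 0.412, unadjusted p = 0.00544, adjusted p = 0.529).

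The partners of these adhesion molecules gave no call either. Over 86 further genes in 8 lists, 83 were tested and edgeR called 0, beside the background of 0.215%. There were 40 positive and 43 negative values, with a median of -0.005. Of the 83, 15 had an unadjusted p under 0.05, beside 939 of all 10678 genes tested. DESeq2 called 2 of them, Opcml (adjusted p = 0.00568) and Ezr (adjusted p = 0.0436), beside 0.618% of genes, and limma-voom called 0. Under other edgeR settings, Ezr passed in litter 2 alone (adjusted p = 0.0345), in females alone (0.0322), with no filter (0.00548) and without control 4 (0.0218). Opcml (adjusted p = 0.0188) and Cntnap2 (0.0284) passed in litter 2 alone, and Nrp1 with the striatal marker score added (0.0220). Alcam passed without a sex term (edgeR adjusted p = 0.0261) and with no filter (0.000905), and Negr1 (0.00747) and Fgfr1 (0.0381) with no filter. Fgfr2 passed with neither litter nor sex term (edgeR adjusted p = 0.0232). Of the 6 tested contactin-associated protein genes, 5 were positive, with a median of 0.51. Cntnap1, at a mean of 0.392 CPM in controls and 1.06 CPM in mutants, was not tested. Cntnap2, the juxtaparanodal member, was at 408 ± 185 CPM in controls and 495 ± 127 CPM in mutants (SD, n = 6 each), and the fitted difference was 0.77 in log2 (SE 0.286, adjusted p = 0.441).

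Among 20 tested ligands and co-receptors, 11 were positive and 9 negative. Nrp1, the semaphorin receptor that pairs with L1, was at 508 ± 197 CPM in controls and 275 ± 82.8 CPM in mutants (SD, n = 6 each), which gave -0.91 in log2 (SE 0.270, adjusted p = 0.295). It fell with the striatal marker score by 0.40 (SE 0.0637, adjusted p = 0.00200). Fgfr2, of the fibroblast growth factor receptors that act beside NCAM, was above the highest control in 5 of 6 mutants, at a fitted log2 difference of 0.31 (SE 0.0997, adjusted p = 0.277). The receptor phosphatase gene Ptprz1 was at -0.30 (SE 0.119, adjusted p = 0.417).

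Of 17 cytoskeletal linkers and trafficking genes, 6 were positive and 11 negative. Ezr, which encodes ezrin, was at 95.8 ± 35.4 CPM in controls and 63.3 ± 17.9 CPM in mutants (SD, n = 6 each), or -0.99 in log2 (SE 0.272, adjusted p = 0.255). The ankyrin gene Ank1 and the spectrin gene Sptbn4 had log2 fold changes of 0.46 (SE 0.173, adjusted p = 0.403) and 0.45 (SE 0.192, adjusted p = 0.478). The 7 sialylation and shedding enzymes, which add polysialic acid to NCAM1 or cut L1 and NCAM from the surface, had a median of -0.01. The protease gene Furin was at -0.52 (SE 0.239, adjusted p = 0.543), and the polysialyltransferase gene St8sia4 at 0.09 (SE 0.150, adjusted p = 0.939). The 9 signalling genes had a median of -0.01, with growth-cone Gap43 at -0.19 (SE 0.159, adjusted p = 0.822).

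In related immunoglobulin families, 5 IgLON genes had a median of -0.16 and 17 other neural adhesion genes a median of -0.02. The IgLON gene Opcml was at 2307 ± 1277 CPM in controls and 714 ± 236 CPM in mutants (SD, n = 6 each), with 5 of 6 mutants below the lowest control, and its log2 fold change of -1.22 (SE 0.313, adjusted p = 0.225) was the largest of these lists. Its family member Negr1 was at 907 ± 204 CPM in controls and 1195 ± 182 CPM in mutants, or 0.46 in log2 (SE 0.174, adjusted p = 0.396). Alcam, an adhesion molecule of growing axons, was at 370.4 ± 119 CPM in controls and 593 ± 89.7 CPM in mutants (SD, n = 6 each). 5 of 6 mutants were above the highest control of Alcam, and the fitted difference was 0.52 in log2 (SE 0.127, adjusted p = 0.108). The nectin genes went both ways, with Nectin1 at 0.41 (SE 0.118, adjusted p = 0.213) and Nectin3 at -0.33 (SE 0.111, adjusted p = 0.307).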

How the data were processed

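Total RNA of embryonic mouse cortex was measured in 12 libraries made by ClickSeq, in which azido-nucleotides stop random-primed reverse transcription and the adaptor is joined by click chemistry. The build mm10, STAR 2.5.2a and HTSeq 0.6.1p1 are named in the submitters' processing notes, along with cutadapt 1.13, UMI-tools 0.5.3 and edgeR 3.20.9. The deposited files hold raw counts per Ensembl gene, not normalized by the authors. The sources used here do not give the annotation release, the counted feature or the use of strand. The 5 entries that name no gene took 20.7 to 31.6% of a file's total and were left out. Counts per library run from 643197 to 3525121, which leaves Cntn6 with 9 to 84 counts.

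Symbols came from GENCODE M21 (47734 identifiers matched with their version, 3985 without, 193 not). After filterByExpr (minimum count 10) and TMM scaling, edgeR 4.0.16 under R 4.3.3 fitted litter, sex and genotype, leaving 8 residual degrees of freedom, by glmQLFit with robust estimation. Calls have a Benjamini-Hochberg adjusted p under 0.05 over all genes tested. Intervals cover 95%. SE is the log2 fold change over the square root of F. CPM use TMM library sizes, and correlations use log2 CPM with a prior count of 2 and 100000 resamples. DESeq2 1.42.0, limma 3.58.1, other terms, filters and subsets of libraries were alternatives. The genotype fit was tested on simulated counts that carried no litter or sex effect, so its separation of such effects from genotype was not tested. Python 3.11.15, pandas 2.3.3, scipy 1.17.1 and matplotlib 3.10.9 were used for the rest.

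The 10 genes and the lists were chosen with earlier results of these data known. Named genes are all 10, Arid1a, called genes of the lists, up to 3 genes of smallest unadjusted p per list, and the 3 genes most like the most abundant member by CPM of each family and like the member of smallest genotype p. Of the list genes so chosen, those not printed did not pass. Overlapping genes held few counts (Arhgap4, on the strand of L1cam, 114 over all libraries), and without known use of strand their reads cannot be told apart. Ambiguous reads, given to no gene, took from 1.8% (mutant 1) to 2.02% (control 1) of a file's total. Low counts of an overlapping gene thus do not measure the reads lost to overlap. Microglia and meninges marker lists had 0 genes tested, and the other marker lists had 0 called between genotypes. The labels give a litter and a sex per library but do not state that each is a separate embryo, so p-values measure the spread between these libraries, which come from 2 litters.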

Additional observations from a re-analysis of the deposited data

Results flagged for a closer look

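L1cam stood apart in mutant 4, at 211 CPM beside 133 to 158 CPM in the other 5 mutants. The gap to the nearest mutant was 0.680 of the range of the group, above Dixon's critical value for 6 libraries. It was the only one of 20 groups of 6 examined (10 genes, 2 genotypes) to pass, and chance passes about 1 in 20 groups. Mutant 4 was the only male mutant and the second shallowest library, with 166 L1cam counts.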

How the results depend on the processing

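Each genotype result was recomputed under 26 alternatives. Of 260 values for the 10 genes, 236 kept their direction and their side of the threshold, 5 kept their direction and passed it, and 19 changed sign without a call. The 23 genes called between genotypes became 261 with no filter, 79 with DESeq2, 77 with no sex term, 143 with neither litter nor sex term, 37 with the striatal marker score added, 5 in litter 1 alone, 64 in litter 2 alone, 44 in females alone, 0 without the 2 shallowest libraries (700 at an unadjusted p under 0.05) and 6 to 55 with each library left out in turn. Of the 10 genes, 1 was called with no filter (Cntn6), and 1 (Cntn4) with DESeq2, with the score added, in litter 2 alone and in females alone. With no filter, 1 of the 10 was called by litter (Nfasc) and 1 by sex (Cntn6), and 4 genes of the context lists (Alcam, Fgfr1, Negr1 and Ezr) by genotype. With each library left out, an alternative chosen after seeing the data, 0 to 1 of the 10 were called by litter, 0 by sex and 0 to 3 by score.

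The log2 fold changes that had changed sign lay between -0.2981 and 0.0839. In litter 2 alone these were Chl1 (0.0149), Nfasc (0.0315), Ncam1 (0.0378) and Cntn1 (0.0839). In litter 1 alone, where 1 control informs genotype, they were Ncam2 (-0.0879) and Cntn2 (-0.2981). Nfasc was at 0.0796 with no litter term, 0.0336 with neither litter nor sex term and 0.0228 with the score added. Cntn2 was at -0.0131 with no filter, -0.1043 in females alone and -0.1460 without the 2 shallowest libraries. With each library left out, Nfasc ran from -0.1542 to 0.0433, Ncam1 from -0.1125 to 0.0465 and Cntn2 from -0.1238 to 0.1854. The ratio of the highest to the lowest level per kb was 71.9 by exons and 376 (375.7932) by span. The causes were not tested. No paired analysis was possible because the labels give no replicate numbers that pair libraries, so litter is a term instead. Depth limits Cntn4 and Cntn6 most, with as few as 36 and 9 counts in a library.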
